A study of Homo sapiens with 4 samples.

Results

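Complex I of the mitochondrial respiratory chain is built from subunits of both genomes, and the 37 nuclear-encoded genes described here carry the NDUF prefix. They were chosen by name out of 57820 annotated features, with no measured value in the rule but with earlier results of these data known. Footprints of translating ribosomes were counted on each gene in 4 libraries of BJ-Ras-ER cells, with 1 library per condition. BJ-Ras-ER cells are human BJ fibroblasts that carry hTERT and an H-RasV12 which is switched on by 4-OH-tamoxifen (4-OHT), and all 4 libraries come from this line. Proliferating cells and cells in oncogene-induced senescence (OIS), reached with 100 nM 4-OHT over 12 days, each received the solvent DMSO or 10 µM GC7 for 18 h. GC7 inhibits the hypusination of eIF5A, a modification that this translation elongation factor needs for its activity. The labels contradict each other for 2 libraries, proliferating GC7 and OIS DMSO, where the title and the treatment entry name different treatments. The titles were followed here, since the design needs a DMSO and a GC7 library in each state, so every direction below rests on them. Library totals ranged from 3039026 counts in OIS DMSO to 6553835 in proliferating GC7. Fibroblast and senescence markers were not checked here, because the reference used pairs none of the 57820 Ensembl numbers with a symbol. The NDUF names come from the selection rule, and each of the 37 genes lies on the chromosome that RefSeq gives for its name.

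Complex I, or NADH:ubiquinone oxidoreductase, takes electrons from NADH, passes them along iron-sulfur clusters to ubiquinone and pumps protons across the inner mitochondrial membrane. It has the shape of an L, with a matrix arm that holds the electron path and a membrane arm that holds the pumps. The pumps themselves are formed by ND proteins, which are encoded by mitochondrial DNA and made on mitochondrial ribosomes. The NDUF proteins are made on cytosolic ribosomes and imported, so that assembly needs the products of both translation systems. By their place in the enzyme, 7 of the genes encode catalytic core subunits, 8 accessory subunits of the matrix arm, 9 accessory subunits of the proximal membrane arm and 11 accessory subunits of the distal membrane arm. The remaining members are NDUFAB1, the mitochondrial acyl carrier protein, and NDUFA4, which kept its name although it is now counted as a component of complex IV.

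A footprint level is given below in CPM, that is counts per 1000000 after TMM scaling over the nuclear features. Of the 37 genes, 35 had at least 40 counts over the 4 libraries and entered the comparisons, as did 11128 nuclear features in all. NDUFV2, an iron-sulfur subunit of the core, had 1, 3, 1 and 1 counts in proliferating DMSO, proliferating GC7, OIS DMSO and OIS GC7. NDUFA13, an accessory subunit of the proximal membrane arm, had 2, 5, 3 and 2 counts in the same order. Both were near 0 in every library and were not tested. They share 28.4% and 44.7% of their exonic bases with another annotated feature, where the counting program by default assigns no read, and the part of this overlap in their low counts was not tested. In all, 18 members share over 10% of their exonic bases with another feature and are uncertain for that reason. These are NDUFA1, NDUFA2, NDUFA9, NDUFA11, NDUFA13, NDUFB2, NDUFB3, NDUFB5, NDUFB6, NDUFB8, NDUFB9, NDUFB11, NDUFC1, NDUFC2, NDUFS1, NDUFS3, NDUFS7 and NDUFV2, with shares from 11.7% for NDUFS1 to 60.0% for NDUFB8. RefSeq also lists pseudogenes for 19 members, among them 12 each for NDUFA5 and NDUFB4, 7 for NDUFS5, 6 for NDUFA3 and 5 each for NDUFA4 and NDUFB3, so reads of these genes may have been lost or split.

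**Figure D1:**
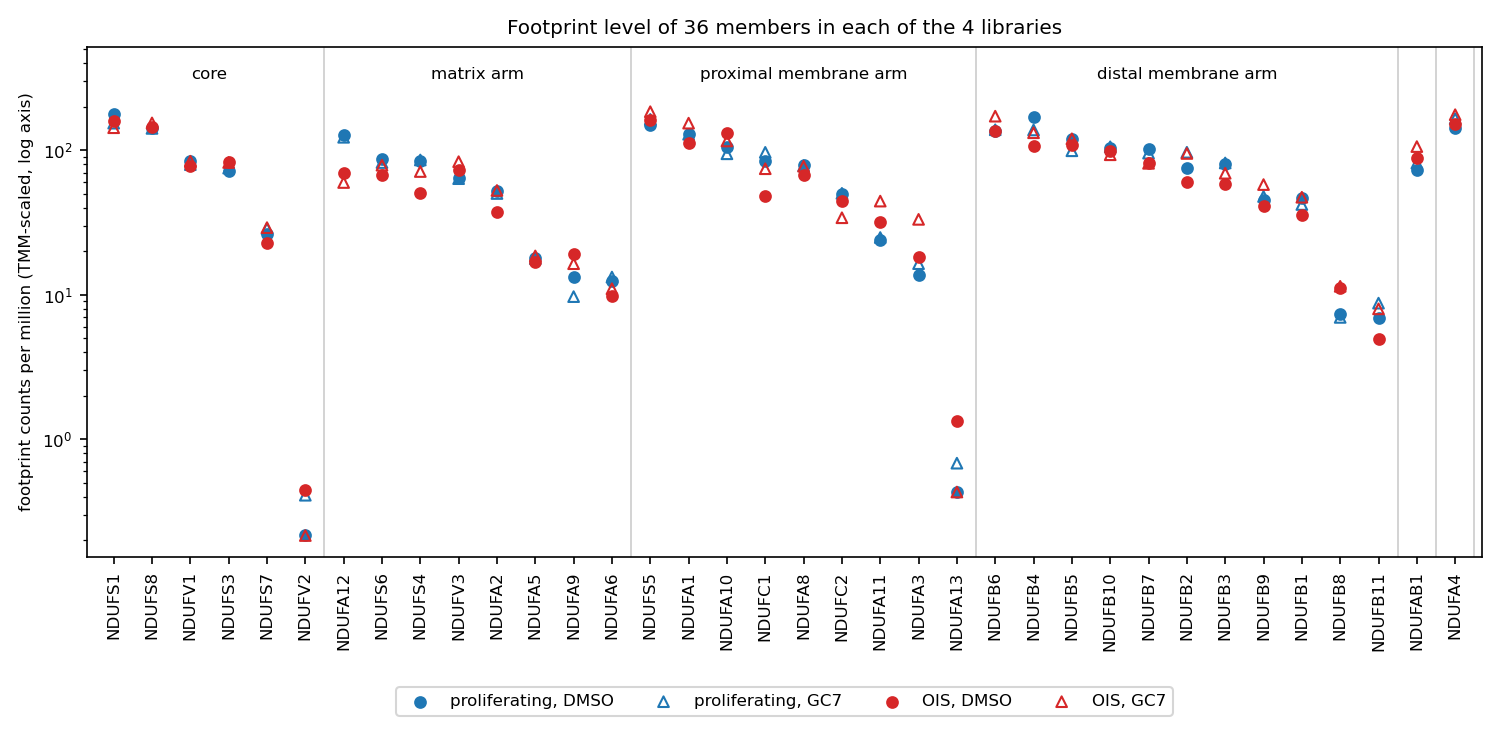
Footprint level (CPM after TMM scaling, log axis) of 36 of the genes in each of the 4 libraries, grouped by place in the enzyme and ordered by mean level, with the acyl carrier NDUFAB1 and NDUFA4 at the right. Blue marks proliferating and red OIS cells, filled circles DMSO and open triangles GC7, and NDUFV2 and NDUFA13 lie far below the other members.

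Summed over the 37 genes, the share of nuclear footprints was the same in both proliferating libraries, lower in OIS GC7 and lowest in OIS DMSO. It was 0.313% (95% exact interval 0.308 to 0.318) in proliferating DMSO and 0.313% (0.309 to 0.317) in proliferating GC7 cells. In OIS cells it was 0.215% (0.21 to 0.221) with DMSO and 0.277% (0.273 to 0.282) with GC7. Such a share divides by total counts, a scale on which the median of all tested nuclear features was also below 0 between the states (log2 -0.40 in DMSO and -0.24 with GC7). The members' median minus that of all features was -0.16 in DMSO and 0.09 with GC7 on this scale, so with GC7 their lower share does not set them below the median feature. These intervals, like all intervals below, cover counting error only. With 1 library per condition there is no replicate check and no p-value for a pair of libraries, and a difference in footprints can come from mRNA level or from ribosome occupancy, which cannot be told apart. Nor can fewer cells of a type and less RNA per cell be told apart in bulk libraries.

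Levels of different genes can be compared only per length, and for that the mean level was divided by exonic length in kilobases, which includes untranslated regions and the exons of all annotated isoforms. On this scale the members spanned a wide range. NDUFS5, a cysteine-rich subunit at the intermembrane space side of the proximal arm, had the highest mean at 300.5 CPM per kilobase. NDUFA1, a small membrane-anchored subunit, had 171.3 and NDUFB7, a cysteine-rich subunit of the distal arm, had 169.3. The lowest tested members were NDUFA5 with 1.808, whose annotation holds 9851 exonic bases, and NDUFA9 with 2.728. NDUFA9, related to short-chain dehydrogenases, sits beside the ubiquinone pocket, and NDUFA5 is a matrix arm subunit. The annotations of NDUFS5, NDUFA1 and NDUFB7 hold 548, 766 and 531 exonic bases, and that of NDUFS1 holds 12268. In mean CPM, NDUFS5 with 164.7 and NDUFS1 with 158.7 were close, but per kilobase they had 300.5 and 12.94. The part of annotated length in the order of the members was not tested.

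Over the 4 libraries the levels of most members spanned a narrower range than those of the median nuclear feature, which is a description with no test. The highest level of a member over its lowest had a median of 1.35, from 1.08 for NDUFV1 to 2.43 for NDUFA3, and 32 of 35 members stayed within 2-fold, or 91.4%. Over all 11128 tested features the median ratio was 1.91 and 53.2% stayed within 2-fold, and among the 9009 features with at least 144 counts, the smallest sum of a tested member, it was 1.81 and 59.6%. This ratio also grows with counting error, and beyond that floor the features were not matched to the members in counts. The members beyond 2-fold were NDUFA3, NDUFA12 with 2.12 and NDUFC1 with 2.01. OIS DMSO was the lowest of the 4 libraries for 17 of 35 members (31.7% of all features) and OIS GC7 the highest for 16 (20.8% of all features). OIS DMSO is also the library with the fewest counts, and the part of its depth in these numbers was not tested.

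Among the 6 tested core subunits, which carry the electron path, the highest level over the lowest ranged from 1.08 for NDUFV1 to 1.28 for NDUFS7. NDUFV1 binds NADH and the flavin at the entry of the path and had levels of 84.13, 79.38, 78.06 and 83.91 CPM in proliferating DMSO, proliferating GC7, OIS DMSO and OIS GC7 cells. NDUFS8, which holds iron-sulfur clusters close to the membrane arm, had 142.9, 141.5, 144.5 and 154.4, and NDUFS3, a structural core subunit, had 72.21, 75.15, 82.52 and 82.18. For these 3 genes no pair of libraries of the same state or the same treatment differed beyond counting error. NDUFS7, an iron-sulfur subunit next to the ubiquinone pocket, had levels of 26.24, 28.69, 22.75 and 29.12 with intervals that included equal levels throughout, and 35.7% of its exonic bases lie opposite another annotated feature. NDUFS1, the large iron-sulfur subunit, was highest in proliferating DMSO (178.9) and lower in proliferating GC7 (153.8), OIS DMSO (159.2) and OIS GC7 (143.0).

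The comparison of OIS with proliferating cells asks which members differ with senescence. Among the genes with the largest differences, NDUFA12, NDUFC1 and NDUFS4 were lower in OIS cells under both treatments. In DMSO more members were lower than higher in OIS cells, and with GC7 the balance depended on the processing. With DMSO, 0 of 35 members were at least 2-fold higher with an interval that excluded equal levels, where 14.0% of all features were, and 0 were at least 2-fold lower, where 12.6% were. Counting every interval that excluded equal levels, 10 members were lower in OIS cells (27.0% of all features) and 2 were higher (29.1%), and for the other 23 the interval included equal levels. The median log2 ratio was -0.17 over the members and -0.02 over all features, and 24 of 35 ratios were below 0. With GC7, 1 member was at least 2-fold higher (12% of all features) and 1 at least 2-fold lower (11.6%), and these were NDUFA3 and NDUFA12. At any size 13 members were higher (31.8%) and 7 lower (31.3%), with a median of 0.08 against -0.01 over all features. With GC7 the balance turned under total-count scaling (3 higher, 13 lower, median -0.15) and with a filter of 400 counts (7 higher, 8 lower), and the median was -0.01 with a filter of 1 count. The 10 lower members in DMSO and the 13 higher with GC7 are close to the shares over all features. The comparison in DMSO and the response to GC7 in OIS cells described below share the OIS DMSO library.

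**Figure D2:**
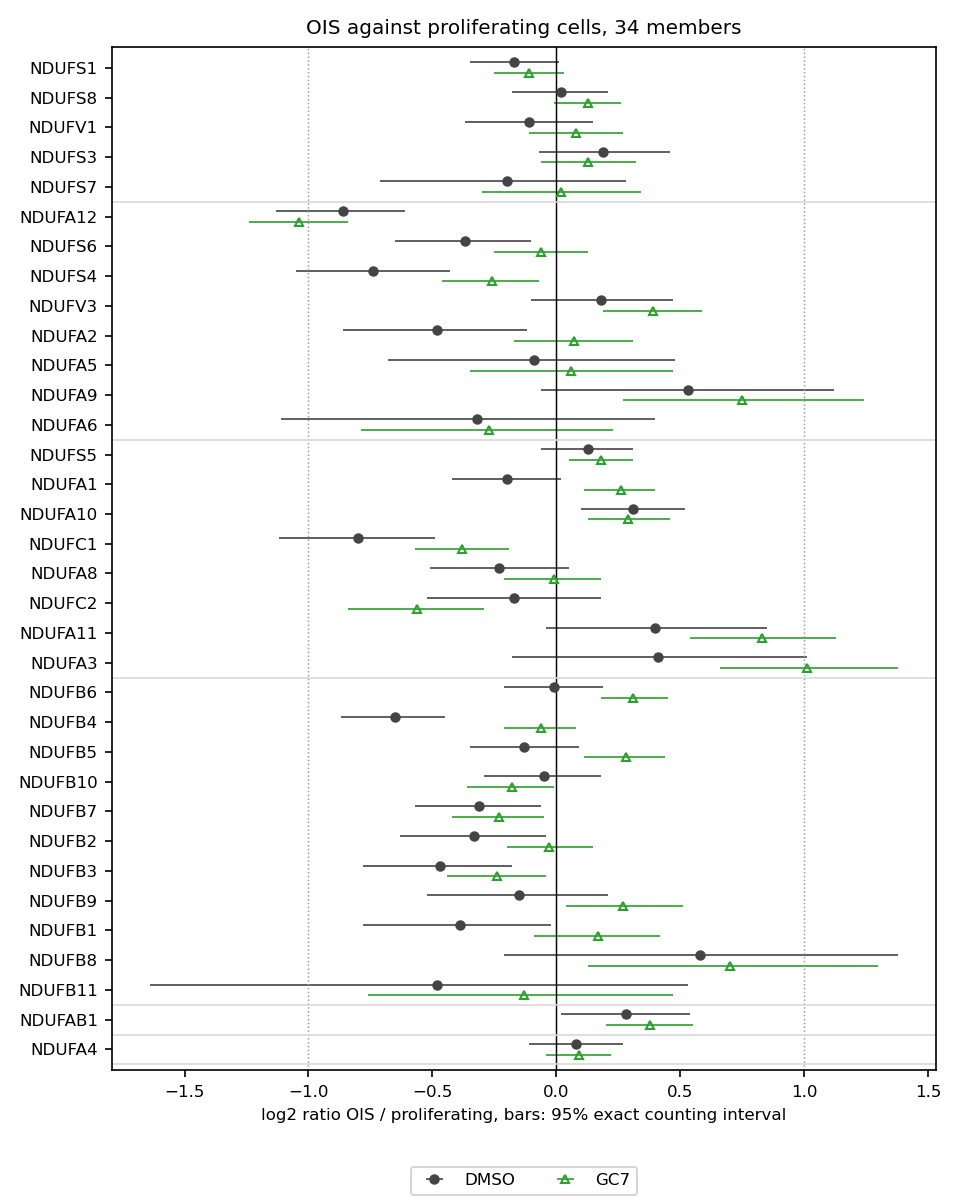
Log2 ratio of OIS over proliferating cells for 34 tested members, in DMSO (black circles) and with GC7 (green triangles), with 95% exact counting intervals as bars, dotted lines at 2-fold and members grouped as in the plot of levels. NDUFA12 lies at -0.86 and -1.04, NDUFA3 at 0.41 and 1.01, and most other members within 2-fold of equal levels.

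By place in the enzyme, the DMSO ratios of the matrix arm accessory subunits had a median of -0.35, with 4 of 8 members lower beyond counting error and 0 higher. Those of the distal membrane arm had a median of -0.31, with 5 of 11 lower and 0 higher. The proximal membrane arm had a median of -0.02, with 1 of 8 tested members lower and 1 higher, and the 6 tested core subunits had a median of -0.14 with 0 beyond counting error. Over all features 27.0% were lower and 29.1% higher, and the difference between these places was not tested. With GC7 the medians were 0.00 for the matrix arm, -0.03 for the distal arm, 0.22 for the proximal arm and 0.10 for the core.

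NDUFA12 (ENSG00000184752, chr12:95290831-95397546 on hg19, minus strand), a matrix arm accessory subunit and a relative of the assembly factor NDUFAF2, gave the largest difference between the states. Its levels were 126.8 and 122.8 CPM in proliferating DMSO and GC7 cells, and 69.59 and 59.75 in OIS DMSO and GC7 cells. Both OIS libraries were below both proliferating libraries. Libraries of the same state differ in treatment and are not replicates. The share of all features with such an order, here and for the genes below, was not counted. The log2 ratio was -0.86 (95% interval -1.13 to -0.61) in DMSO and -1.04 (-1.24 to -0.84) with GC7. The gene shares 0% of its exonic bases with another feature.

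NDUFC1 (ENSG00000109390, chr4:140188034-140223705, minus strand), a small subunit of the proximal membrane arm, and NDUFS4 (ENSG00000164258, chr5:52856463-52979168, plus strand), an accessory subunit at the NADH-oxidising end whose loss is a known cause of Leigh syndrome, were lower in OIS cells as well. NDUFC1 had 83.92 and 96.60 CPM in proliferating DMSO and GC7 cells and 48.17 and 74.42 in OIS DMSO and GC7 cells, with log2 ratios of -0.80 (-1.12 to -0.49) in DMSO and -0.38 (-0.57 to -0.19) with GC7. NDUFS4 had 84.13 and 85.53 in proliferating and 50.41 and 71.18 in OIS cells, with ratios of -0.74 (-1.05 to -0.43) and -0.26 (-0.46 to -0.07). For both genes each OIS library was below both proliferating libraries, and OIS DMSO was the lowest library. NDUFC1 shares 18.5% of its exonic bases with a feature on the same strand. Beside NDUFA12, NDUFC1 and NDUFS4, only NDUFB3 and NDUFB7 of the distal membrane arm were lower beyond counting error under both treatments, which makes 5 of 35 members against 18.8% of all features. NDUFB3 had 80.66 and 81.57 CPM in proliferating and 57.99 and 69.24 in OIS cells (DMSO, then GC7), with log2 ratios of -0.47 (-0.78 to -0.18) and -0.24 (-0.44 to -0.04). NDUFB7 had 101.5 and 95.37 in proliferating and 81.63 and 81.10 in OIS cells, with ratios of -0.31 (-0.57 to -0.06) and -0.23 (-0.42 to -0.05).

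In the other direction, 2 members were higher in OIS cells beyond counting error under both treatments, against 22.4% of all features. NDUFA10, a proximal arm subunit of the nucleoside kinase family, had 106.0 and 94.41 CPM in proliferating and 131.6 and 115.8 in OIS cells (DMSO, then GC7), with log2 ratios of 0.31 (0.10 to 0.52) and 0.29 (0.13 to 0.46). NDUFAB1, the acyl carrier, which serves mitochondrial fatty acid synthesis and is also bound to complex I, had 72.42 and 81.43 in proliferating and 87.87 and 105.9 in OIS cells, with ratios of 0.28 (0.02 to 0.54) and 0.38 (0.20 to 0.55). Neither gene shares exonic bases with another feature, and in both the lower OIS library was above the higher proliferating library.

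NDUFA3 (ENSG00000170906, chr19:54606036-54612564, plus strand) and NDUFA11 (ENSG00000174886, chr19:5891287-5904017, minus strand), subunits of the proximal membrane arm, were highest in OIS GC7. NDUFA3, a short single-helix protein, had 13.66, 16.40, 18.29 and 33.22 CPM in proliferating DMSO, proliferating GC7, OIS DMSO and OIS GC7 cells, from 63, 120, 41 and 154 counts. NDUFA11, which resembles the import channel proteins of the TIM family, had 23.85, 24.87, 31.67 and 44.43 from 110, 182, 71 and 206 counts. Both OIS libraries were above both proliferating libraries in each gene. The log2 ratio with GC7 was 1.01 (0.66 to 1.38) for NDUFA3 and 0.83 (0.54 to 1.13) for NDUFA11, while in DMSO it was 0.41 (-0.18 to 1.01) and 0.40 (-0.04 to 0.85), where the interval included equal levels.

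Other members at the ends of the range rested on fewer counts or on 1 of the treatments. NDUFA9 had log2 ratios of 0.53 (-0.06 to 1.12) in DMSO and 0.75 (0.27 to 1.24) with GC7, from 61, 71, 43 and 76 counts in proliferating DMSO, proliferating GC7, OIS DMSO and OIS GC7. NDUFB8, a distal arm subunit used as a marker of assembled complex I, had 0.58 (-0.21 to 1.38) and 0.70 (0.13 to 1.30) from 34, 51, 25 and 53 counts. NDUFA6, a matrix arm subunit that binds the acyl carrier, had -0.27 (-0.79 to 0.23) with GC7. NDUFC2, the proximal arm partner of NDUFC1, had -0.17 (-0.52 to 0.18) in DMSO and -0.56 (-0.84 to -0.29) with GC7, where its level was 34.08 CPM in OIS and 50.28 in proliferating cells. Of these 4 genes, NDUFA9, NDUFB8 and NDUFC2 are among those with overlapping annotation.

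The state difference was also tested across all features by the quasi-likelihood method of edgeR. The model added state and treatment and left 1 residual degree of freedom, which takes up library spread as well as any unequal response of proliferating and OIS cells. After Benjamini-Hochberg adjustment, 2 members were called higher in OIS cells (18% of all features) and 2 lower (14.5%). NDUFA12 fell by 0.96 on the log2 scale (SE 0.19, adjusted p = 0.00231, edgeR) and NDUFC1 fell by 0.57 (SE 0.20, adjusted p = 0.0447). NDUFA3 rose by 0.77 (SE 0.27, adjusted p = 0.0441) and NDUFA11 rose by 0.64 (SE 0.23, adjusted p = 0.0456). Of these, NDUFA12 alone kept its call under all 6 other fits tried, where its adjusted p ranged from 5.89e-05 to 0.00935. NDUFC1, NDUFA3 and NDUFA11 each lost the call with DESeq2's Wald test and in the model without treatment, while their log2 fold changes stayed close, at -0.57 and -0.54 for NDUFC1, 0.74 and 0.80 for NDUFA3 and 0.64 and 0.66 for NDUFA11. NDUFA3 and NDUFA11 also lost it with total-count scaling and with a filter of 1 count, and NDUFA11 with a filter of 400 counts, which NDUFA3 did not pass. NDUFS4 had a log2 fold change of -0.49 (adjusted p = 0.0862) and NDUFA9 of 0.65 (adjusted p = 0.115), which did not pass. At an unadjusted p under 0.05 there were 6 of 35 members, or 17.1%, against 42.5% of all features.

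NRF1 is a transcription factor known for activating nuclear genes of the respiratory chain, and its motif, spelled GCGCA, any base and GCGC (GCGC, any base and TGCGC read from the other strand), was searched on both strands of the RefSeq promoters, 250 bases before to 50 bases after each start, on GRCh38.p14. Of the 37 genes 32 have a promoter in the table. The motif was present in 6 of these, NDUFA3, NDUFA8, NDUFA9, NDUFA11, NDUFA12 and NDUFB4, or 18.8%, against 9.67% of 15843 protein-coding genes and 6.98% of all 27305 genes of the table. These are matches of letters and not measured sites. The genes that hold it include NDUFA12, lower in OIS cells under both treatments. They also include NDUFA3 and NDUFA11, higher in OIS cells with GC7 but with intervals that included equal levels in DMSO. NDUFC1, also called in the model, has a promoter in the table without a match. NDUFA8, NDUFA9 and NDUFB4 hold a match and were not called in that model. NDUFA3 and NDUFB4 hold further matches that are not shown. For NDUFA12, NDUFA3 and NDUFA11, and for NDUFB4, whose GC7 ratios are given below, the 100 bases around a match upstream of the start are shown 5′ to 3′ on the strand of the gene, with the match in capitals.
NDUFA12 promoter, GRCh38.p14 chr12:95003759-95003858, minus strand: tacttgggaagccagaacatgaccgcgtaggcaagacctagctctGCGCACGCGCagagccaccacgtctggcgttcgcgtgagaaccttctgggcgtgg
NDUFA3 promoter, GRCh38.p14 chr19:54102737-54102836, plus strand: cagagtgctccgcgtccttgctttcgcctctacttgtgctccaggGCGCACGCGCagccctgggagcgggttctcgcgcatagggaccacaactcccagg
NDUFA11 promoter, GRCh38.p14 chr19:5903834-5903933, minus strand: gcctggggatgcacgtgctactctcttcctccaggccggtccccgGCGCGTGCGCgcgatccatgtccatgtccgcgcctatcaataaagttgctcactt
NDUFB4 promoter, GRCh38.p14 chr3:120596228-120596327, plus strand: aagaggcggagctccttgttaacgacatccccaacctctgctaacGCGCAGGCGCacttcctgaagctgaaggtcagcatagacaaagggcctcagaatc

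The comparison of GC7 with DMSO asks whether the members respond to inhibition of eIF5A hypusination. In proliferating cells the members stayed close to equal levels as a group, and in OIS cells more of them were higher with GC7. In proliferating cells 0 of 35 members were at least 2-fold higher (3.46% of all features) and 0 at least 2-fold lower (2.08%). At any size 3 were higher beyond counting error (20.1%) and 4 lower (19.4%), and the median log2 ratio was -0.01 against 0.02 over all features, with a range from -0.44 to 0.37. In OIS cells 0 members were at least 2-fold higher (3.53%) and 0 lower (2.75%), while at any size 14 were higher (15.3%) and 0 lower (18%). The median in OIS cells was 0.19 against 0.01 over all features, and 27 of 35 ratios were above 0. Whether an interval excludes equal levels also depends on the counts of a feature. Here, as in the comparisons of the states, the features behind such shares were not matched to the members in counts.

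**Figure D3:**
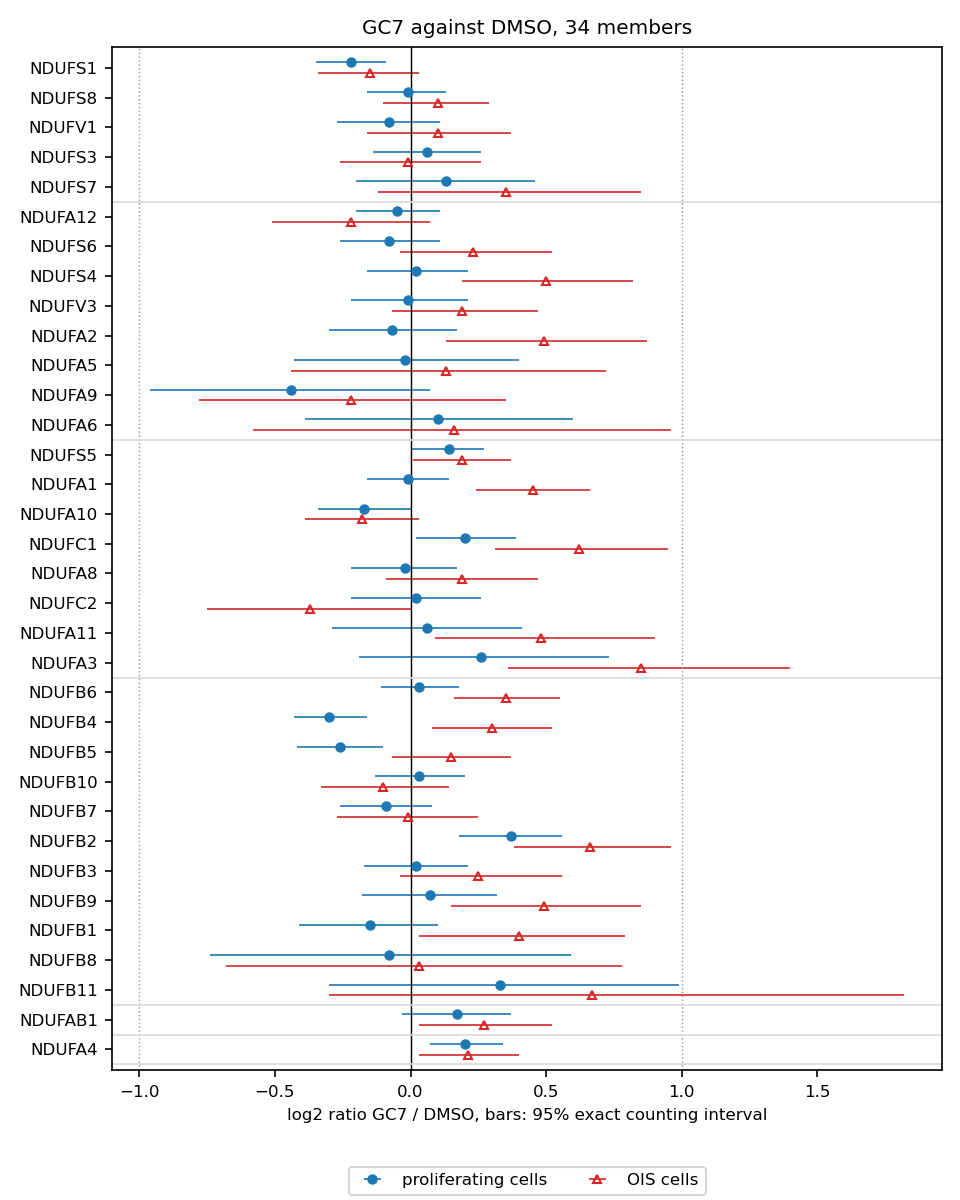
Log2 ratio of GC7 over DMSO for 34 tested members in proliferating (blue circles) and OIS cells (red triangles), with 95% exact counting intervals as bars and dotted lines at 2-fold. The blue points lie between -0.44 and 0.37 on both sides of 0, and 26 of the 34 red points lie above 0, up to 0.85 for NDUFA3.

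Of the 14 members higher with GC7 in OIS cells, 10 were accessory subunits of the membrane arm, which also make up most of the tested members. Beyond counting error, 5 of 8 tested proximal arm subunits, 5 of 11 distal arm subunits, 2 of 8 matrix arm subunits and 0 of 6 tested core subunits were higher, with median log2 ratios of 0.32, 0.30, 0.18 and 0.06 in that order. Over all features 15.3% were higher, and the difference between these groups was not tested. In proliferating cells the medians were 0.04, 0.02, -0.03 and -0.05.

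NDUFB2 (ENSG00000090266, chr7:140390577-140422590, plus strand), a distal arm subunit, and NDUFC1 were higher with GC7 in both states, as was NDUFA4, and these 3 of 35 members compare with 5.10% of all features. NDUFB2 had 75.03 CPM with DMSO and 96.73 with GC7 in proliferating cells, and 59.77 and 94.91 in OIS cells. Both GC7 libraries were above both DMSO libraries, an order whose share over all features was likewise not counted. The log2 ratio was 0.37 (0.18 to 0.56) in proliferating and 0.66 (0.38 to 0.96) in OIS cells, and 35.9% of the exonic bases of NDUFB2 are shared, mostly with a feature on the opposite strand. NDUFA4 had 143.3 and 165.2 in proliferating and 151.7 and 176.0 in OIS cells, and its ratios were 0.20 (0.07 to 0.34) and 0.21 (0.03 to 0.40). NDUFC1, whose levels are given above, had ratios of 0.20 (0.02 to 0.39) and 0.62 (0.31 to 0.95).

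NDUFA3 had the highest GC7 ratio in OIS cells with 0.85 (0.36 to 1.40), beside 0.26 (-0.19 to 0.73) in proliferating cells. NDUFB11, a distal arm subunit, followed with 0.67, but from 11 and 37 counts and with an interval from -0.30 to 1.82, and in proliferating cells it had 0.33 (-0.30 to 0.99). NDUFS4 had 0.50 (0.19 to 0.82) and NDUFA11 0.48 (0.09 to 0.90) in OIS cells, against 0.02 (-0.16 to 0.21) and 0.06 (-0.29 to 0.41) in proliferating cells. The lowest ratio in OIS cells was -0.37 for NDUFC2, with an interval that reached equal levels (-0.75 to 0.00), followed by NDUFA9 and NDUFA12 with -0.22 each and NDUFA10 with -0.18, where the intervals included equal levels.

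The 4 members lower with GC7 in proliferating cells included NDUFS1, NDUFB4 and NDUFB5. NDUFS1 had -0.22 (-0.35 to -0.09) in proliferating and -0.15 (-0.34 to 0.03) in OIS cells. NDUFB5, a distal arm subunit, had 118.6 and 99.06 CPM in proliferating DMSO and GC7 cells and a ratio of -0.26 (-0.42 to -0.10). In OIS cells it had 108.4 and 119.9, with a ratio of 0.15 (-0.07 to 0.37). NDUFA9 had the lowest ratio in proliferating cells at -0.44, but with an interval from -0.96 to 0.07.

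NDUFB4 (ENSG00000065518, chr3:120315156-120321347 on hg19, plus strand), a distal membrane arm subunit, was the only member whose GC7 ratios lay beyond counting error in opposite directions in the 2 states, which 4.67% of all features did. Its levels were 169.3 and 138.0 CPM in proliferating DMSO and GC7 cells and 107.5 and 132.0 in OIS DMSO and GC7 cells. Proliferating DMSO was the highest library and OIS DMSO the lowest, and the GC7 libraries lay between them. The log2 ratio of GC7 over DMSO was -0.30 (-0.43 to -0.16) in proliferating and 0.30 (0.08 to 0.52) in OIS cells. Between the states, the ratio of OIS over proliferating was -0.65 (-0.87 to -0.45) in DMSO and -0.06 (-0.21 to 0.08) with GC7.

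The GC7 log2 ratio of OIS cells minus the GC7 log2 ratio of proliferating cells was above 0 for 30 of 35 members, with a median of 0.22 against -0.01 over all features. Its counting interval lay above 0 for 10 members (14.9% of all features) and below 0 for 0 members (17.0%). The differences ranged from -0.39 for NDUFC2 to 0.59 for NDUFB4 (interval 0.34 to 0.84) and for NDUFA3 (-0.07 to 1.25). This difference uses the OIS DMSO library, and with 1 library per condition the part of that library cannot be told apart from the response.

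In the additive model over all 4 libraries, edgeR's quasi-likelihood test called 0 members higher with GC7 (0.144% of all features) and 0 lower (0.243%). DESeq2's Wald test, also after adjustment, called 0 members higher and 0 lower. At an unadjusted p under 0.05 in edgeR's test there was 1 of 35 members, or 2.86% against 9.66% of all features. That member was NDUFB2, with a log2 fold change of 0.51 (SE 0.19, adjusted p = 0.415). The log2 fold changes ranged from -0.34 for NDUFA9 to 0.55 for NDUFA3, with a median of 0.09 against 0.01 over all features. An unequal response of the 2 states enters the residual of this model.

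When total counts over the tested features replaced TMM, the all-feature median became 0.19 for the GC7 ratio in OIS cells, and the state ratio had medians of -0.40 in DMSO and -0.24 with GC7. The medians of the members minus those of all features were 0.19, -0.16 and 0.09 under this scaling and 0.18, -0.15 and 0.09 with TMM.

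The 7 ND genes, which encode the membrane-embedded core of the same enzyme in mitochondrial DNA, serve as a contrast. In proliferating cells they had together 45129 counts with DMSO (1.04% of all counts) and 563 with GC7 (0.00859%). OIS cells gave 107956 counts with DMSO (3.55%) and 1556 with GC7 (0.032%). Counts over the whole mitochondrial genome were lower in both GC7 libraries as well, with 124760 in proliferating DMSO against 1843 with GC7 and 369510 in OIS DMSO against 6861 with GC7, so the low counts were not limited to complex I genes. Their sum over that of the 37 nuclear-encoded genes was 3.43 in proliferating DMSO and 18.8 in OIS DMSO cells, but 0.0275 in proliferating GC7 and 0.116 in OIS GC7 cells. On the scale set by the nuclear features, the median log2 ratio of GC7 over DMSO was -6.87 (-8.21 for ND3 to -6.57 for ND1) in proliferating cells and -7.19 (-7.32 for ND2 to -6.22 for ND6) in OIS cells. Each of these ratios compares 1 library with 1 library. A response to GC7 cannot be told apart from any other difference between the libraries, such as recovery of mitochondrial footprints. The tested nuclear-encoded members ranged from -0.44 to 0.37 and from -0.37 to 0.85 in the same comparisons, so the ranges did not overlap. Between the states the ND genes had a median of 2.17 (1.41 to 2.48) in DMSO and 2.16 (1.65 to 2.96) with GC7, while the tested members ranged from -0.86 to 0.58 and from -1.04 to 1.01. ND4L (positions 10470 to 10766) overlaps ND4 (10760 to 12137) in a short stretch, so counts of these genes are uncertain there.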

How the data were processed

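Ribosome footprints of 4 libraries were aligned by the authors to hg19. The submitters' notes name STAR 2.5.3a, and the table headers name featureCounts 1.5.1 with GENCODE 19. The deposited values are whole-number counts per gene. No strand, multi-mapping or overlap option is named in the headers. Whether molecular identifiers were collapsed is not stated there. Depth was 4323662, 6553835, 3039026 and 4860980 counts in proliferating DMSO, proliferating GC7, OIS DMSO and OIS GC7.

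From these counts, nuclear features with a sum of at least 40 were kept and scaled by TMM (edgeR version 4.0.16, R version 4.3.3). Log2 ratios of 2 libraries have a prior count of 1 and 95% exact counting intervals (conditional binomial, Clopper-Pearson; Python version 3.11.15, SciPy version 1.17.1). Differences between 2 ratios have normal-approximation intervals. The additive model used edgeR's quasi-likelihood test, and DESeq2 version 1.42.0 was an alternative. The SE given with an edgeR fold change was derived from the test, as the absolute log2 fold change over the square root of F. The state ratio in DMSO and the state effect of the additive model were tested on simulated data with state differences above 2-fold. Smaller differences, the GC7 ratios and the response differences were not tested in this way. The members and lists were chosen with earlier results of these data known. 1 member is counted in the totals but is not reported here by name or value, and it is left out of the plots that name genes. Named with values were the core subunits, NDUFA4, NDUFAB1, the 4 highest and 4 lowest members of each comparison, members called in the model, the highest and lowest per length and members beyond counting error under both treatments or in both states. The last criterion was chosen after the values were seen. Complex I assembly factors, NDUFA7 and marker genes could not be named and have no result. Level per codon and tripeptide motifs were not run, as protein sequences were not used here, and level per exonic length took their place. RefSeq gene and promoter tables (GRCh38.p14) gave names, pseudogenes and promoters.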

Additional observations from a re-analysis of the deposited data

Results flagged for a closer look

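NDUFB4 was marked because its GC7 ratio went in opposite directions in the 2 states, with a log2 ratio of -0.30 in proliferating and 0.30 in OIS cells, each from 1 library against 1 library. The difference was not tested against replicate spread. RefSeq lists 12 pseudogenes of NDUFB4.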

How the results depend on the processing

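Each condition has 1 library, so the limits are depth and counting error, and leaving out a library leaves the additive model with no residual degree of freedom. No paired analysis was possible because the conditions share only 1 replicate number, but the additive model compares the states within each treatment, and the model without treatment drops that block. Total-count scaling gave medians of 0.38 for GC7 in OIS cells (22 members higher, 1 beyond 2-fold), -0.55 for the states in DMSO (0 higher, 24 lower, 4 beyond 2-fold), -0.15 in place of 0.08 for the states with GC7 (3 higher, 13 lower, 1 beyond 2-fold) and 0.38 for the response difference (19 above 0), and the model then called 0 higher and 7 lower in OIS cells. Upper-quartile scaling gave 0.25, -0.28 (0 higher) and 0.00 (1 beyond 2-fold) for the same 3 comparisons, and DESeq2 size factors gave 1 member lower with GC7 in OIS cells. A filter of 400 counts left 29 members, with medians of 0.03 for GC7 in proliferating cells (5 higher) and 0.02 for the states with GC7 (7 higher, 1 beyond 2-fold), 1 higher for the states in DMSO and 0 called higher in the model. A filter of 1 count gave 0.09 for GC7 in proliferating cells (5 higher), -0.01 for the states with GC7 (1 beyond 2-fold), 1 higher for the states in DMSO, 1 response difference below 0 and 0 called higher. A prior count of 5 left 1 beyond 2-fold for the states with GC7. With a 1.5-fold limit 3, 4 and 5 members passed for GC7 in OIS cells and for the states in DMSO and with GC7. The 19 members with at most 10% shared bases gave 1 higher and 2 lower for GC7 in proliferating cells, 7 higher in OIS cells, a median of -0.11 and 6 lower for the states in DMSO, 6 higher and 4 lower with GC7, a response difference of 0.15 with 4 above 0, and 1 member called in each direction. The model without treatment and DESeq2's Wald test each called 0 higher and 1 lower. Fewer members enter under the filter of 400 counts and the overlap limit, and for the other settings the cause was not tested. Level per codon and the tripeptide counts were not run.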
